A study of Mus musculus with 27 samples.

Results

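NRF2 (encoded by Nfe2l2) is the transcription factor that switches on cellular defense against oxidants and electrophiles. It is held down by KEAP1, which marks it for destruction, and it binds antioxidant response elements in DNA together with a small MAF protein, while BACH1 competes for the same elements. In skin, this program is known for protecting keratinocytes and for buffering the loss of glutathione. The 10 genes described here were listed as targets of the program, and how directly NRF2 controls each was not tested. Gclc and Gclm encode the 2 subunits of glutamate-cysteine ligase, the rate-limiting enzyme of glutathione synthesis. Slc7a11 is the cystine importer that feeds this enzyme. Gsr is glutathione reductase and Txnrd1 is cytosolic thioredoxin reductase. Srxn1 is sulfiredoxin, which repairs oxidized peroxiredoxins, and Nqo1 is a quinone reductase. Hmox1 is heme oxygenase 1, also repressed by BACH1. G6pdx is glucose-6-phosphate dehydrogenase, a source of NADPH, and Sod2 is mitochondrial superoxide dismutase. The genes were taken by gene symbol, but the list was chosen with earlier results of these data known. All 10 were found among 51906 gene symbols in the RNA-seq table and among 32285 genes in the single cell matrices.

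The RNA-seq libraries came from hair follicle stem cells (HFSCs) purified from skin at postnatal day 55 and grown in 3D culture, in 4 groups of 2 libraries: wild-type or Rxra cKO cells, each in FBS or in atRA+PKCi. The Rxra cKO cells came from Sox9-CreER, Rxra fl/fl, Rosa26-YFP mice, in which Cre driven from Sox9 removes part of the retinoid X receptor gene Rxra. By the tissue labels, the 2 libraries of a group came from 2 mice, and both media of one genotype from the same 2 mice. The atRA+PKCi medium holds all-trans retinoic acid, an inhibitor of protein kinase C, and the serum-free supplement B-27 in place of FBS. Because B-27 itself contains antioxidants, the loss of serum, B-27, atRA and PKCi cannot be told apart in these libraries. Genotype likewise cannot be told apart from mouse and culture line. Single cell matrices came from back skin of 2 wild-type mice at postnatal day 32 (the AnaVI stage, late in hair growth) and from wild-type HFSCs cultured from 2 mice under 7 conditions that were tagged with antibody barcodes and pooled.

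Library totals lay between 25150300 and 35879800 estimated counts. Rxra itself was at 97.2 and 95.7 CPM (counts scaled to the same library total, after TMM correction in the RNA-seq libraries) in Rxra cKO cells in FBS, below the 149 and 122 of wild-type, but at 148 and 145 in Rxra cKO cells in atRA+PKCi, against 147 and 143 in wild-type. A gene-level count includes exons outside the deleted part, so it does not check the genotype labels. The sum of 5 skin epithelial markers lay between 15900 and 36000 CPM, lowest in wild-type atRA+PKCi. The sum of 6 fibroblast markers, which would report carried-over feeder cells, lay between 1.32 and 11.6 CPM, with 4 or 5 of the 6 markers above 0 in every library. Markers of dividing cells summed to 324 and 337 CPM in Rxra cKO atRA+PKCi, against 655 to 824 in the other groups. The part of these differences in the results was not tested. In bulk RNA, fewer cells of one kind and less RNA per cell cannot be told apart.

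RefSeq promoter windows, which run from 250 bases before to 50 bases after each start (GRCm38.p6), were held for 7 of the 10 genes, all but Hmox1, Gclc and Gsr. The core letters of the antioxidant response element, TGACNNNGC, were searched on both strands of these windows. They occurred in 4 of the 7 genes, Gclm, Txnrd1, Srxn1 and G6pdx, and in 14.0% of all 27025 genes with a window. Of these 4 genes, Gclm, Srxn1 and G6pdx were lower in atRA+PKCi in both genotypes below, while Txnrd1 rose in wild-type and fell in Rxra cKO cells. Whether the letters bear on these changes was not tested. The capitals mark the 9 letters that match, each sequence reads 5′ to 3′ on the strand named, and the matches are descriptions of letters, not binding sites.
Gclm, chr3:122245413-122245441, minus strand: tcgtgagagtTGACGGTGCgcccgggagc
Txnrd1, chr10:82859104-82859132, minus strand: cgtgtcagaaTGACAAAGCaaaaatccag
Srxn1, chr2:152105542-152105570, minus strand: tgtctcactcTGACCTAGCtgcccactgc
G6pdx, chrX:74428919-74428947, plus strand: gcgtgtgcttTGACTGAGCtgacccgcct
Distances are to the RefSeq start of each window, which can differ from the ends of the gene coordinates given below. The Gclm match began 134 bases before its start and the G6pdx match 57 bases before its start. The Txnrd1 match began 92 bases before 1 of its 3 listed starts. By the gene coordinates given below, the Txnrd1 and G6pdx matches lay inside the gene. The Srxn1 match lay just past its start. The windows of Nqo1, Slc7a11 and Sod2 did not hold these letters.

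In wild-type HFSCs, the atRA+PKCi medium split the 10 genes. Hmox1, Slc7a11, Gclm, Nqo1, G6pdx and Srxn1 were lower than in FBS, and Gclc, Txnrd1 and Gsr were higher. Thus 6 members fell and 3 rose, where 26.6% of the 15965 genes tested fell and 27.2% rose, 53.9% in all (edgeR quasi-likelihood test, adjusted p under 0.05). The median log2 fold change of the 10 members was -0.52, against 0.03 over all genes tested.

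The deepest fall was that of Hmox1 (ENSMUSG00000005413, chr8:75093621-75100589, plus strand), which breaks down heme. Its level was 245.6 and 286.7 CPM in the 2 wild-type FBS libraries and 40.22 and 38.46 CPM in atRA+PKCi. This was a 6.77-fold drop, with a log2 fold change of -2.76 ± 0.10 (SE, adjusted p = 1e-07). Slc7a11 (ENSMUSG00000027737, chr3:49892526-50443614, minus strand), the cystine importer, stood at 282.5 and 239.0 CPM in FBS and at 43.65 and 60.67 CPM in atRA+PKCi. It was thus 5.00-fold lower, with a log2 fold change of -2.32 ± 0.16 (adjusted p = 4.37e-06).

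The 2 subunits of glutamate-cysteine ligase went opposite ways. The modifier subunit Gclm (ENSMUSG00000028124, chr3:122245557-122270732, plus strand) was at 119.4 and 119.1 CPM in FBS and at 31.21 and 31.14 CPM in atRA+PKCi, a fall of 1.94 ± 0.09 on the log2 scale (adjusted p = 4.53e-07). The catalytic subunit Gclc (ENSMUSG00000032350, chr9:77754535-77794485, plus strand) was at 131.7 and 121.0 CPM in FBS and at 262.5 and 261.5 CPM in atRA+PKCi, 2.07-fold higher (log2 fold change 1.05 ± 0.08, adjusted p = 8.16e-06). Replicates of these genes lay close together, and each pair of groups was separated by a wide gap. Per kilobase of exon, the ratio of the Gclc level to the Gclm level was 1.77 ± 0.10 (SD, n = 2) for wild-type cells in FBS and 14.0 ± 0.02 for those in atRA+PKCi. In Rxra cKO cells the same ratio was 4.83 ± 0.04 in FBS and 8.94 ± 1.07 in atRA+PKCi.

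**Figure D1:**
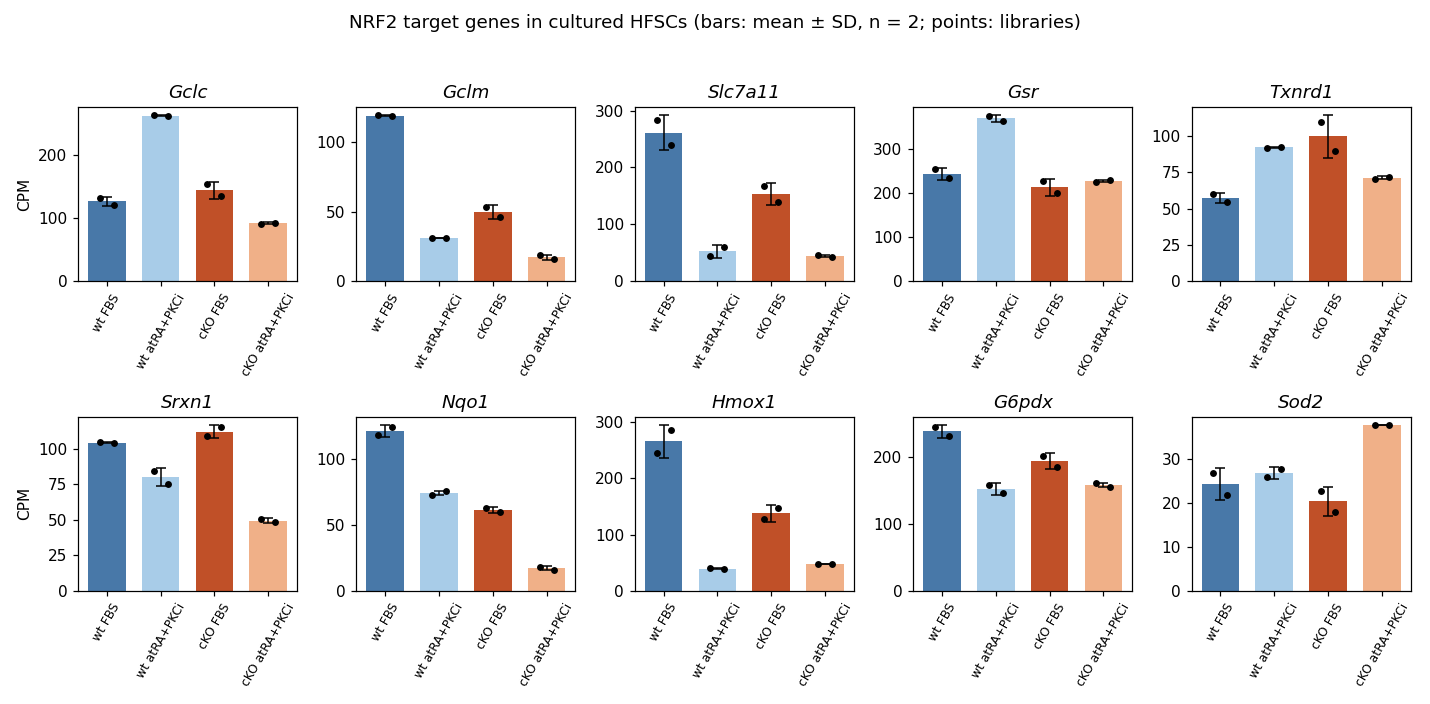
Level of each gene in CPM (vertical axis, starting at 0) in the 4 groups of cultured HFSCs. Bars are means, error bars are SD (n = 2) and points are libraries. Gclc is highest in wild-type atRA+PKCi, with both libraries near 262 CPM, while Gclm and Hmox1 are highest in wild-type FBS.

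The other 2 genes that rose act in the same redox chains. Gsr (ENSMUSG00000031584, chr8:33652523-33698163, plus strand), which regenerates reduced glutathione, was at 253.0 and 232.8 CPM in wild-type FBS and at 373.4 and 363.4 CPM in atRA+PKCi (log2 fold change 0.60 ± 0.08, adjusted p = 0.000275). Txnrd1 (ENSMUSG00000020250, chr10:82833951-82897712, plus strand), a selenoprotein that regenerates reduced thioredoxin, was at 59.71 and 54.55 CPM in FBS and at 91.86 and 92.38 CPM in atRA+PKCi (log2 fold change 0.69 ± 0.10, adjusted p = 0.000412). Both rises were smaller than that of Gclc.

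The remaining falls were modest. Nqo1 (ENSMUSG00000003849, chr8:107388225-107403206, minus strand) went from 118.2 and 124.5 CPM in FBS to 72.81 and 75.34 CPM in atRA+PKCi (log2 fold change -0.71 ± 0.08, adjusted p = 7.42e-05). G6pdx (ENSMUSG00000031400, chrX:74409483-74429194, minus strand) was at 244.5 and 231.0 CPM in FBS and at 158.2 and 145.2 CPM in atRA+PKCi (log2 fold change -0.65 ± 0.08, adjusted p = 0.00012). Srxn1 (ENSMUSG00000032802, chr2:152105516-152111376, plus strand) was at 104.6 and 104.2 CPM in FBS and at 84.45 and 75.56 CPM in atRA+PKCi (log2 fold change -0.38 ± 0.07, adjusted p = 0.00221). The Srxn1 fall was not called when scaled by library totals only (-0.142, adjusted p = 0.187). Sod2 (ENSMUSG00000006818, chr17:13006846-13040063, plus strand) was the one member not called, at 26.94 and 21.87 CPM in FBS and 25.88 and 27.78 CPM in atRA+PKCi (adjusted p = 0.403), and its groups overlapped.

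In Rxra cKO HFSCs the medium lowered 8 of the 10 genes and raised 1, where 22.2% of genes fell and 20.8% rose, 43.0% in all. The median log2 fold change was -0.92 for the members and 0.02 for all genes tested. Nqo1 fell most, from 62.90 and 59.37 CPM in FBS to 18.25 and 15.87 CPM in atRA+PKCi, a 3.57-fold drop (log2 fold change -1.84 ± 0.08, adjusted p = 9.47e-07). Slc7a11, Hmox1, Gclm and Srxn1 followed, with log2 fold changes of -1.79 ± 0.16, -1.54 ± 0.10, -1.53 ± 0.10 and -1.18 ± 0.08 (adjusted p between 5.14e-06 and 3.77e-05). Thus the cystine importer, the modifier subunit, heme oxygenase and the quinone reductase were all lower in atRA+PKCi than in FBS in both genotypes, as were Srxn1 and G6pdx.

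Gclc and Txnrd1, by contrast, rose in wild-type cells and fell in Rxra cKO cells. Gclc was at 153.5 and 134.5 CPM in Rxra cKO FBS and at 90.49 and 92.57 CPM in atRA+PKCi (log2 fold change -0.65 ± 0.08, adjusted p = 0.000261). Txnrd1 was at 110 and 89.39 CPM in FBS and at 70.42 and 72.01 CPM in atRA+PKCi (log2 fold change -0.485 ± 0.10, adjusted p = 0.00402). Gsr, which rose in wild-type cells, was at 226.0 and 199.2 CPM in FBS and 224.4 and 228.2 CPM in atRA+PKCi in Rxra cKO cells, so that its groups overlapped (adjusted p = 0.405).

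Sod2 was the member that rose in Rxra cKO cells, from 22.80 and 18.07 CPM in FBS to 37.84 and 37.77 CPM in atRA+PKCi (log2 fold change 0.89 ± 0.13, adjusted p = 0.000658). G6pdx fell least, by 0.29 ± 0.08 on the log2 scale (adjusted p = 0.0137), and this call was lost when Rxra cKO FBS library 1 or either Rxra cKO atRA+PKCi library was left out (adjusted p 0.0878 to 0.119), and under scaling by library totals only (adjusted p = 0.164).

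**Figure D2:**
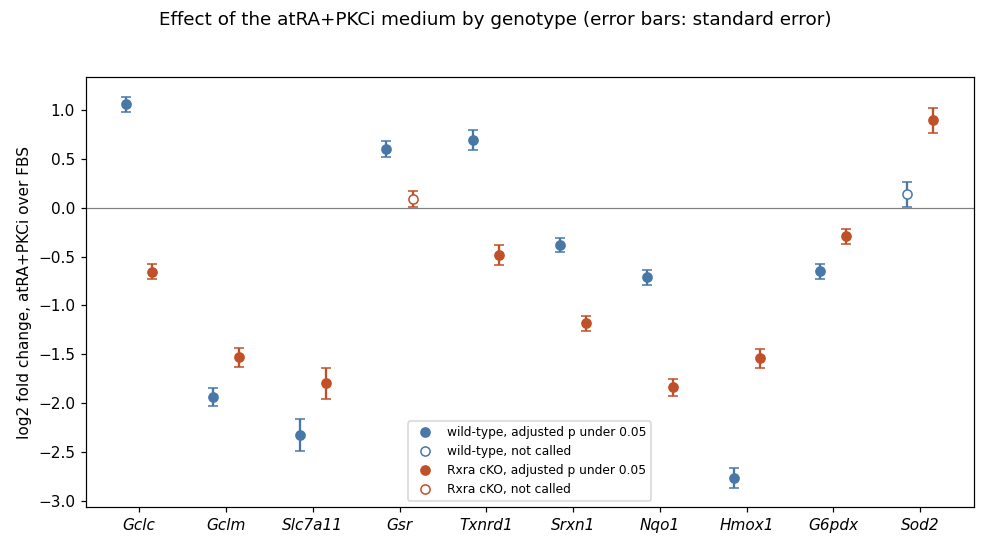
Log2 fold change of atRA+PKCi over FBS (vertical axis) for each gene, in wild-type (blue) and Rxra cKO (orange) HFSCs. Error bars are standard errors, and open points did not pass an adjusted p of 0.05. Gclc and Txnrd1 lie above 0 in wild-type and below 0 in Rxra cKO cells, while Hmox1, Slc7a11 and Gclm lie well below 0 in both.

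Whether the medium change differed between the 2 genotypes was tested by the interaction over the same 8 libraries, that is, the log2 change in wild-type minus that in Rxra cKO cells. It passed for 8 of the 10 genes, 5 with a more positive change in wild-type and 3 with a more negative one, where 11.3% and 13.3% of all genes did, 24.6% together. Gclc differed most, with an interaction of 1.71 ± 0.11 (adjusted p = 2.28e-05). Txnrd1 (1.17 ± 0.14, adjusted p = 0.000507), Nqo1 (1.124 ± 0.11, adjusted p = 0.000217), Srxn1 (0.80 ± 0.105, adjusted p = 0.000871) and Gsr (0.51 ± 0.11, adjusted p = 0.0121) differed the same way. These are the catalytic ligase subunit and 4 reductases that act on glutathione, thioredoxin, peroxiredoxins or quinones. The modifier subunit Gclm, the importer Slc7a11 and the NADPH source G6pdx had interactions of the opposite sign. This grouping by function was not tested.

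Hmox1 differed in the opposite direction, since its fall was deeper in wild-type (interaction -1.22 ± 0.14, adjusted p = 0.00041). Sod2 (-0.75 ± 0.18, adjusted p = 0.0172) and G6pdx (-0.36 ± 0.11, adjusted p = 0.0414) did as well. Gclm was not called (-0.41 ± 0.13, adjusted p = 0.0528), but passed with the mouse as a block in the paired fit (-0.40, adjusted p = 0.0251), and Slc7a11 was not called (-0.53 ± 0.22, adjusted p = 0.118). The interactions of Gsr, Sod2 and G6pdx depended on single libraries, with adjusted p up to 0.0809, 0.0604 and 0.153 when one was left out, whereas those of Gclc, Txnrd1, Nqo1, Srxn1 and Hmox1 passed without any one library.

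In FBS, Rxra cKO cells were already lower than wild-type for 5 members and higher for 1, where 20.5% of genes were lower and 22.3% higher, 42.8% in all. Gclm was 2.39-fold lower, at 53.40 and 46.28 CPM against 119.4 and 119.1 in wild-type (log2 fold change -1.26 ± 0.09, adjusted p = 1.39e-05). Nqo1 and Hmox1 stood near one another, with log2 fold changes of -0.99 ± 0.08 (adjusted p = 2.34e-05) and -0.95 ± 0.10 (adjusted p = 9.16e-05). Slc7a11 was lower too (log2 fold change -0.765 ± 0.15, adjusted p = 0.00374), and G6pdx more weakly (-0.30 ± 0.08, adjusted p = 0.012, but 0.082 without Rxra cKO FBS library 2, 0.2 under library totals only and 0.0531 in a fit of the 4 libraries compared). Txnrd1 was 1.75-fold higher in Rxra cKO cells (log2 fold change 0.80 ± 0.10, adjusted p = 0.000277). Gclc, Gsr, Srxn1 and Sod2 were not called, with adjusted p of 0.0896, 0.0866, 0.29 and 0.147.

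In atRA+PKCi, Rxra cKO cells were lower for 6 members and higher for 1, where 20.2% of genes were lower and 23.0% higher, 43.2% in all. Nqo1 showed the widest gap, at 18.25 and 15.87 CPM in Rxra cKO against 72.81 and 75.34 CPM in wild-type, a 4.33-fold difference (log2 fold change -2.11 ± 0.08, adjusted p = 4.28e-07). Gclc was 2.86-fold lower (-1.52 ± 0.08, adjusted p = 2.03e-06), and Gclm, Gsr and Srxn1 were lower by log2 fold changes of -0.85 ± 0.10, -0.70 ± 0.08 and -0.69 ± 0.08 (adjusted p between 0.000113 and 0.000159). Hmox1 and Slc7a11, the deepest falls of the wild-type medium comparison, did not differ beyond the test's threshold between genotypes in this medium (log2 fold changes 0.27 ± 0.10 and -0.24 ± 0.16, adjusted p = 0.0592 and 0.262), and neither did G6pdx (adjusted p = 0.581). Hmox1 lay close to the threshold, and passed it in 4 of the 8 fits that left out 1 library (adjusted p 0.026 to 0.0457). The differences of Txnrd1 (-0.37 ± 0.10, adjusted p = 0.0142) and Sod2 (0.495 ± 0.13, adjusted p = 0.0123) were lost without single libraries of either genotype, at adjusted p up to 0.11 and 0.0604.

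Across the 8 libraries the members formed no single pattern. The correlation of log2 levels was 0.967 between Hmox1 and Slc7a11 and 0.964 between Hmox1 and G6pdx, but -0.297 between Hmox1 and Gclc and 0.0851 between Gclc and Gclm. These values describe 8 libraries that share 4 groups. Of all genes tested, those whose levels followed Nqo1 most closely were Rasgrf1 (r = 0.996), Fam126a (0.994) and Mex3b (0.99), and those closest to Hmox1 included Erp44 (0.997) and Epn3 (0.996).

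Most regulators of NRF2 changed by small amounts. Of 10 regulator genes, the medium raised 2 and lowered 4 in wild-type cells, and raised 5 and lowered 2 in Rxra cKO cells. Over all genes tested, 53.9% (wild-type) and 43.0% (Rxra cKO) were called in either direction, so the wild-type count is near that background. Nfe2l2 rose by 0.25 ± 0.08 and 0.37 ± 0.08 on the log2 scale (first wild-type, then Rxra cKO; adjusted p = 0.0246 and 0.00593), and Keap1 rose by 0.31 ± 0.09 and 0.41 ± 0.09 (adjusted p = 0.0177 and 0.0068). Bach1 fell slightly in wild-type cells (-0.23 ± 0.09, adjusted p = 0.0454), while Mafg was called in neither genotype (adjusted p = 0.512 and 0.159). Of the 10, the small MAF gene Maff, named after its values were seen, changed most and fell, with log2 fold changes of -1.90 and -2.09 in wild-type and Rxra cKO cells.

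Nfe2l2 and Keap1 also differed between genotypes. Nfe2l2 was lower in Rxra cKO than in wild-type cells in FBS (-0.51 ± 0.08, adjusted p = 0.00104) and in atRA+PKCi (-0.40 ± 0.08, adjusted p = 0.00359). Keap1 was lower too (-0.64 ± 0.09 and -0.54 ± 0.09, adjusted p = 0.00063 and 0.00131), and Bach1 was higher (0.41 ± 0.08 and 0.65 ± 0.08, adjusted p = 0.00468 and 0.000334). Nfe2l2, Keap1, Bach1 and Mafg did not pass the interaction test (adjusted p between 0.177 and 0.628).

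Other NRF2 targets were counted in the same way. Of 23 further targets, 6 rose and 12 fell in wild-type atRA+PKCi (median log2 fold change -0.31, against 0.03 for all genes), and 4 rose and 14 fell in Rxra cKO atRA+PKCi (median -0.43, against 0.02). The share that rose was near that of all genes (27.2% in wild-type and 20.8% in Rxra cKO), while 26.6% and 22.2% of all genes fell. Aldh3a1, an aldehyde dehydrogenase, rose in both genotypes, with log2 fold changes of 4.70 (wild-type) and 4.75 (Rxra cKO). Ephx1, microsomal epoxide hydrolase, rose by 1.69 and 1.32, and Osgin1 by 1.119 and 1.34. Gsta4, a glutathione transferase, fell in both (log2 fold changes -2.53 and -2.74). Malic enzyme, Me1, fell by more in wild-type than in Rxra cKO cells (-1.83 and -0.74, interaction -1.09, adjusted p = 9.89e-05). The ferritin heavy chain gene Fth1 fell in both (-1.43 and -1.81), as did the heme transporter gene Slc48a1 (-1.75 and -1.31). The largest adjusted p of these medium changes was 0.000153.

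Of 21 antioxidant enzyme genes outside the NRF2 lists 19 were tested, and 3 rose and 7 fell in wild-type and 3 rose and 6 fell in Rxra cKO atRA+PKCi, near the 53.9% and 43.0% of all genes called. Glutaredoxin, Glrx, showed the greatest interaction among them, with a log2 fold change of -4.91 in wild-type and -1.60 in Rxra cKO cells (interaction -3.31, adjusted p = 1.43e-05). Prdx5, a mitochondrial and peroxisomal peroxiredoxin, fell in both (-2.09 and -0.92), and Gpx3, the secreted glutathione peroxidase, rose in both (2.27 and 2.32). Of 21 selenoprotein genes tested, 6 rose and 8 fell in each genotype (of all genes, 27.2% rose and 26.6% fell in wild-type, and 20.8% rose and 22.2% fell in Rxra cKO cells), with the greatest rise in wild-type cells that of Selenop (3.73, and 2.60 in Rxra cKO cells). Of 12 ATF4 targets of the amino acid stress response, a list that also holds Slc7a11, 8 fell and 1 rose in wild-type, and 6 fell and 1 rose in Rxra cKO atRA+PKCi, against the same shares of all genes. After Slc7a11, Chac1 and Trib3 fell most in wild-type cells (-1.15 and -0.71), and Sesn2 was the one that rose (0.46 and 0.73 in the 2 genotypes).

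In back skin, the glutathione arm of the program was highest, among named cell classes, in the outer root sheath (ORS), the outer epithelial layer of the growing hair follicle. By the paper, the skin cells had been enriched by a sort for cells negative for CD45, CD31, CD140a and CD117. It would remove immune, endothelial, fibroblast and melanocyte cells. The cells of those classes described below are thus ones the sort was meant to leave out. Yet the fibroblast class was the largest, with 5594 and 5326 cells in the 2 mice, and the reason was not tested. A total of 13625 and 13608 cells were kept from the 2 mice and clustered without the 10 genes, and 12 cell classes were named from fixed markers, which left 2229 and 2594 cells unnamed. The ORS class held 1178 and 1491 cells in 4 clusters, each with at least 6 of 7 ORS markers. Since cells were clustered on their expression, class levels are given with no test. Gclc stood at 622.3 and 721.5 CPM in the ORS class of mouse 1 and mouse 2, against 148.5 and 165.5 CPM in hair matrix cells, the class with the next highest level. The mean of the ORS class, 671.9 ± 70.1 CPM (SD, n = 2), was thus 4.28-fold that of the hair matrix. The lowest Gclc level, in the dermal papilla class, averaged 40.6 CPM.

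Gclm had the same 2 leading classes, at 408.1 and 408.7 CPM in the ORS class and 132.8 and 116.2 CPM in the hair matrix. In skin, therefore, both ligase subunits were highest in the same named class. The cystine importer Slc7a11 was at 40.20 and 53.20 CPM in the ORS class and at 16.0 and 18.8 CPM in immune cells, the next class. Gsr was at 122.9 and 270.0 CPM in the ORS class and at 39.6 and 96.4 CPM in immune cells. The 2 mice thus differed widely in Gsr in both classes, yet in each mouse the ORS level was above that of every other named class.

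Within the ORS class the 4 clusters varied. Gclc was at 1324 and 1106 CPM in cluster 33 and 925.7 and 1013 CPM in cluster 13, both marked by Lgr5, and at 430.6 and 415.4 CPM in cluster 12 and 420.8 and 559.5 CPM in cluster 18. Slc7a11 was also highest in clusters 33 and 13, and ranged from 12.3 and 12.6 CPM in cluster 18 to 115.0 and 99.4 CPM in cluster 33. A further cluster of 88 and 57 cells, marked by Krt15 and Col17a1 and left unnamed, held Gclc at 484.4 and 962.2 CPM but Gclm only at 119.6 and 145.6 CPM and Gsr at 14.0 and 29.6 CPM. Slc7a11 was at 0 and 2.275 CPM there. The marker list that this cluster matched best was that of the ORS, with 7 of 7 markers detected. That cluster thus held Gclc near the level of the ORS class without its Gclm, Slc7a11 or Gsr level. Gsr was at 200.1 and 153.8 CPM in another unnamed cluster, 10, against 122.9 and 270.0 CPM in the ORS class. Slc7a11 was at 6.091 and 72.84 CPM in unnamed cluster 8, led by Myog, against 40.20 and 53.20 CPM in the ORS class.

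**Figure D3:**
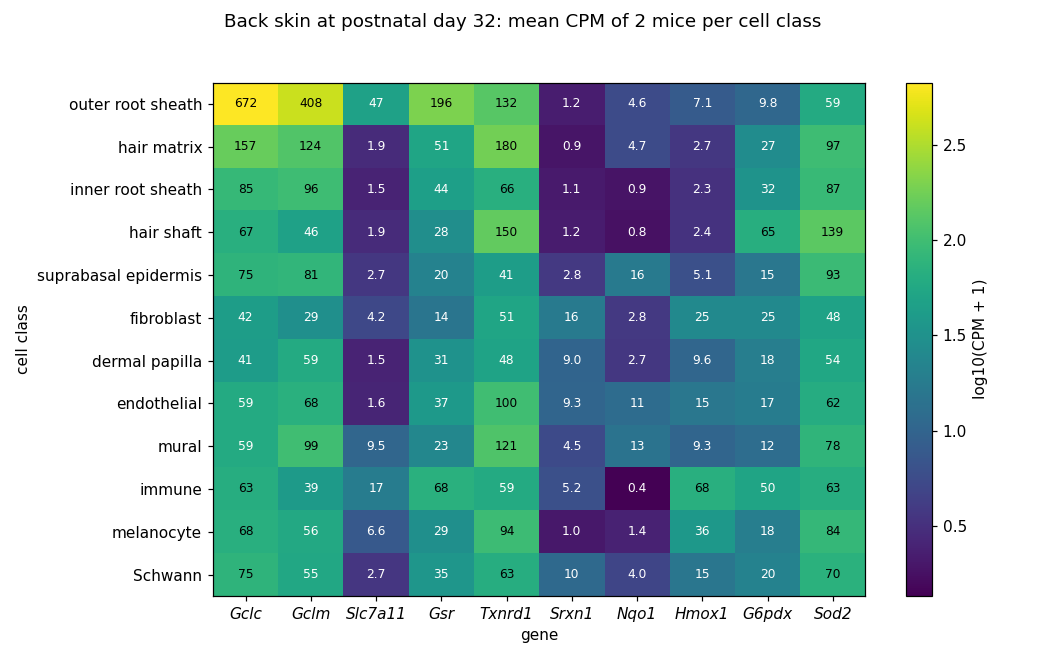
Mean level of 2 mice in CPM (printed in each cell, color on a log10 scale) of each gene (columns) in the 12 named cell classes of back skin (rows). Gclc, Gclm, Slc7a11 and Gsr are highest in the outer root sheath row, where G6pdx is at its lowest, and Hmox1 is highest in the immune row.

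Among the 12 named classes, the other members were highest elsewhere. Hmox1 was at 75.4 and 59.7 CPM in immune cells, which include the macrophages that recycle heme, and at 8.15 and 6.14 CPM in the ORS class. Nqo1 was highest in suprabasal epidermis (16.7 and 15.3 CPM), ahead by mean of mural cells (13.9 and 12.9 CPM), and at 4.96 and 4.30 CPM in the ORS class. Srxn1 was highest in fibroblasts (19.0 and 14.0 CPM) and at 1.65 and 0.847 CPM in the ORS class. G6pdx was lowest of all classes in the ORS, at 10.2 and 9.31 CPM, and highest in the hair shaft, at 70.8 and 59.9 CPM. Sod2 was also highest in the hair shaft (157.3 and 119.8 CPM), and Txnrd1 in the hair matrix (178.4 and 180.6 CPM) ahead by mean of the hair shaft (146.7 and 153.1 CPM). Unnamed clusters were higher still in both mice for 3 of these genes. Nqo1 was at 42.8 and 50.6 CPM in cluster 26, led by milk protein genes such as Csn3, Sod2 at 182.5 and 152.1 CPM in cluster 19, led by muscle genes such as Acta1, and Txnrd1 at 191.1 and 213.7 CPM in cluster 6, led by Csta1 and Tchh. Hmox1 was at 65.25 and 66.97 CPM in unnamed cluster 30, led by Car3. This was below the immune class in mouse 1 and above it in mouse 2. Nfe2l2 itself was at 100 and 96.4 CPM in the ORS class, below the 252.2 and 178.8 CPM of immune cells. Free RNA was not removed from these counts, and its part in the low levels was not tested.

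Cultured HFSCs in the single cell data were compared with the ORS class over sums per mouse. By the paper, the HFSCs put into culture had been isolated from the mice of the skin libraries. The sums were not paired by mouse in this fit. All 217 and 68 tagged cells from conditions that hold atRA+PKCi were summed. Only 2 and 1 of these cells came from atRA+PKCi alone, and most came from BMP2/4 (113 and 13) and Rspo+BMP2/4 (92 and 27). The rest came from Rspo (5 and 6) and from Rspo+BMP2/4 with an inhibitor of the retinoic acid receptor RAR (5 and 21). The sums thus include cells in which the receptor of atRA was inhibited. The paper places cells given both Rspo and BMPs among the lineages of the mature hair follicle. The 2 sources also differ in library and in preparation, so culture, its added factors and library cannot be told apart. Of the 10 members, 4 were higher and 2 lower in culture, where 15.8% of 13699 genes were higher and 22.2% lower, 38.0% in all (edgeR quasi-likelihood test, adjusted p under 0.01 and absolute log2 fold change over 1). The median log2 fold change was 0.50 for the members and -0.13 for all genes.

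Gclc was the gene that differed most among those lower in culture. It was at 40.7 ± 0.67 CPM in cultured cells and 671.9 ± 70.1 CPM in the ORS class (SD, n = 2), a 12.3-fold difference after TMM scaling (log2 fold change -3.62 ± 0.26, adjusted p = 3.94e-13). Gclm was also lower, at 118 ± 9.19 CPM against 408.4 ± 0.42 CPM (-1.36 ± 0.23, adjusted p = 6.95e-06), a call that missed the threshold without the cultured sum of mouse 2 (adjusted p = 0.0195). The unnamed Krt15 and Col17a1 cluster, not part of the ORS class, held Gclm at 119.6 and 145.6 CPM. The ratio of Gclc to Gclm UMIs was 0.33 and 0.36 in cultured cells and 1.52 and 1.77 in the ORS class. The wild-type atRA+PKCi RNA-seq libraries had the opposite order to these cultured cells, with means of 262 CPM for Gclc and 31.18 CPM for Gclm. UMI ratios are not per kilobase of exon, unlike the RNA-seq ratios above. The cause of the differing order was not tested.

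The other 4 members called went the other way. Srxn1 was at 16.8 and 13.9 CPM in cultured cells and at 1.65 and 0.847 CPM in the ORS class (log2 fold change 4.15 ± 0.36, adjusted p = 2.44e-11). G6pdx was at 36.5 and 34.8 CPM in cultured cells and at 10.2 and 9.31 CPM in the ORS class (2.30 ± 0.225, adjusted p = 3.9e-10). Hmox1 (1.63 ± 0.27, adjusted p = 6.6e-06) and Nqo1 (1.44 ± 0.32, adjusted p = 0.000286) were higher from low levels in both sources, and Nqo1 was not called without the cultured sum of mouse 1 (adjusted p = 0.132). Txnrd1, Slc7a11, Sod2 and Gsr did not pass both criteria, with log2 fold changes of -0.82, -0.59, 0.67 and 0.32. Of the 4 genes that were highest in the ORS class in skin, 2 were thus lower in culture (Gclc and Gclm) and 2 were not called (Slc7a11 and Gsr). These 4 genes were picked by their ORS levels, and the same ORS sums were the reference here. The pick leans toward lower levels in culture, so this count is a description only.

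**Figure D4:**
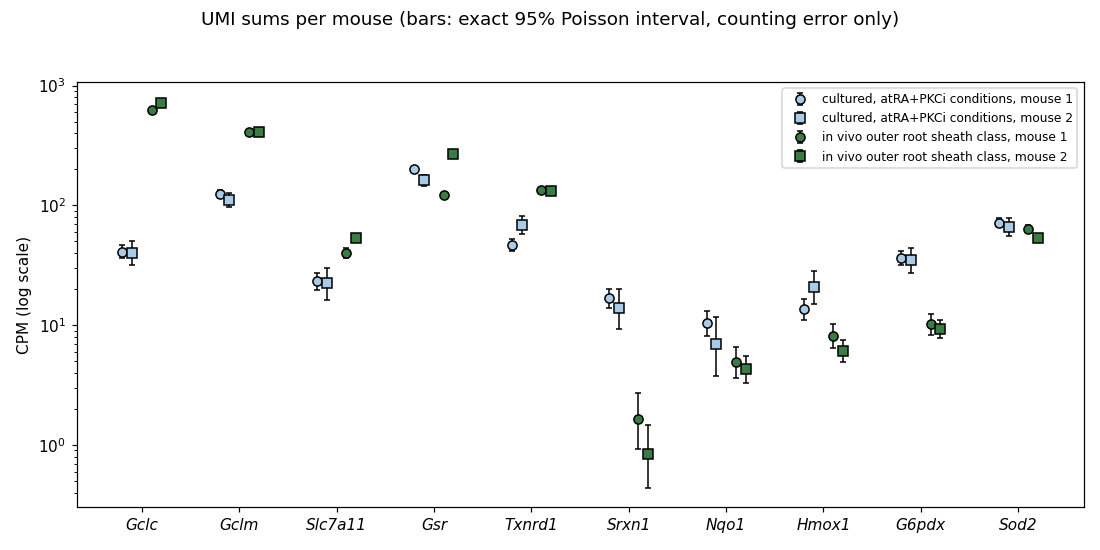
CPM (vertical log axis) of each gene in summed UMIs of cultured cells from conditions with atRA+PKCi (light blue) and of the in vivo outer root sheath class (green), 1 point per mouse. The cultured sums include cells also given an RAR inhibitor. Bars are exact 95% Poisson intervals, which cover counting error only. Gclc lies more than 10 times lower in culture, Srxn1 and G6pdx lie higher in culture, and the Gsr points overlap.

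Few cells remained in each culture condition, so these comparisons had little depth. The B-27 condition (by its name, without atRA+PKCi) had 5 and 10 cells in mouse 1 and mouse 2. The BMP2/4 condition, which also holds atRA+PKCi, had 113 and 13 cells, Rspo+BMP2/4 had 92 and 27, and the same with an RAR inhibitor (RARi) had 5 and 21. No cell tagged for FBS was kept, so the serum comparison of the bulk libraries could not be repeated in single cells.

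Hmox1 was at 873.2 and 368.7 CPM in B-27 and at 15.69 and 23.49 CPM in BMP2/4, and it was the one member called between these conditions (log2 fold change -4.90 ± 0.60, adjusted p = 1.8e-05), where 5.28% of 6265 genes were lower in BMP2/4 and 0.431% higher, 5.71% in all. A single cell carried 163 of the 165 Hmox1 UMIs of mouse 1 in B-27, and another carried 68 of the 81 of mouse 2. Without the cell with the most Hmox1 UMIs in each sum, an alternative chosen after seeing the data, the levels were 12.4 and 61.5 CPM in B-27 and 14.7 and 20.2 CPM in BMP2/4, which overlap, and Hmox1 no longer passed the filter on low counts. In mouse 1 the high level thus belonged to 1 cell, whereas in mouse 2 the remaining B-27 cells stayed above the BMP2/4 sums, and 6 of its 10 cells held an Hmox1 UMI. Markers of suprabasal epidermis summed to 5030 and 3420 CPM in the B-27 sums against 348 to 489 CPM in the other conditions, and their part in the result was not tested. The 6 immune markers were at 0 in both B-27 sums.

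The other members did not separate B-27 from BMP2/4 at this depth. Gsr was at 47.6 and 68.3 CPM in B-27 and at 196 and 206 CPM in BMP2/4, with no overlap, but missed the threshold (log2 fold change 1.88 ± 0.53, adjusted p = 0.0269). Gclc had 15.9 and 13.7 CPM in B-27 and 32.5 and 39.2 CPM in BMP2/4 (1.36 ± 0.60, adjusted p = 0.167). Nqo1 and Srxn1 were too low to be tested.

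Adding Rspo to BMP2/4, or the RAR inhibitor to both, changed no member by this test, and no gene of 6265 was called in either comparison (0% by edgeR and 0 by DESeq2). The number of genes with an unadjusted p under 0.05 was 44 for Rspo and 232 for the RAR inhibitor. The log2 fold changes of the 8 members tested lay between -0.26 and 1.00 for Rspo and between -0.87 and 1.09 for the RAR inhibitor. Their standard errors were between 0.365 and 0.73, so that a difference of 1 on the log2 scale could have been missed. Slc7a11, at 228.8 and 18.25 CPM with the RAR inhibitor and 32.64 and 26.69 CPM without it, owed 19 of its 22 UMIs in mouse 1 to 1 cell.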

How the data were processed

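Cultured HFSCs were profiled by RNA-seq, and back skin and cultured HFSCs by droplet single cell RNA-seq. The authors deposited estimated counts per gene (Salmon 1.4.0 per the submitters' processing notes, mm10), a table of counts divided by size factors, which is treated as a normalized signal made by the authors, and UMI counts per gene and cell (Cell Ranger 7.0.1 per the same notes). Estimated counts were rounded and fitted with edgeR 4.0.16 (filterByExpr, TMM, quasi-likelihood, 4 group means over 8 libraries, Benjamini-Hochberg over 15965 genes, adjusted p under 0.05). DESeq2 1.42.0, limma 3.58.1 on log2(normalized value + 1), other scalings, filters and left-out libraries were alternatives. Values after ± are standard errors for log2 fold changes and SD (n = 2) for levels.

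Cells with at least 500 genes, at least 1000 UMIs and under 10% mitochondrial UMIs were kept. Doublets were removed in the skin libraries with Scrublet through scanpy 1.11.5, and in culture only as double tags with HTODemux (Seurat 5.3.0, quantile 0.99). UMIs were summed per mouse and class or condition with at least 5 cells, and sums were tested with edgeR (adjusted p under 0.01, absolute log2 fold change over 1). Of the cell barcodes, 62 were shared by the 2 skin libraries. Intervals cover counting error only.

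The members and gene lists were chosen with earlier results of these data known. Genes were named by a rule: all members, the 4 main regulators, and the 3 highest and 3 lowest called genes of each list, with companion values. Maff, and the values of Fth1, Slc48a1 and Me1 in comparisons where the rule did not pick them, were added after their values were seen. By the tissue labels, same-numbered libraries of a genotype came from one mouse, but their deviations from the group means correlated at 0.0668 (wild-type) and at -0.0188 (Rxra cKO), and at -0.292 to 0.25 between cultured conditions. One gene that the rule for likeness to Hmox1 picks is not reported here. ATAC-seq and CUT&RUN samples were not used here.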

Additional observations from a re-analysis of the deposited data

Results flagged for a closer look

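The log2 change between media differed between wild-type and Rxra cKO HFSCs by the interaction test in edgeR for 8 of the 10 genes. It was more positive in wild-type cells by 1.71 for Gclc, 1.17 for Txnrd1, 1.124 for Nqo1, 0.80 for Srxn1 and 0.51 for Gsr, and more negative by an interaction of -1.22 for Hmox1, -0.75 for Sod2 and -0.36 for G6pdx. For Gclc and Txnrd1 the 2 genotypes moved in opposite directions, whereas Nqo1, Srxn1, Hmox1 and G6pdx fell in both and differed in size. With 2 mice per genotype, genotype and mouse cannot be told apart in these values.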

How the results depend on the processing

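Of 1199 member values recomputed, 1077 kept their direction and side of the threshold, 55 were weaker, 36 stronger and 31 reversed, and none of those reversed was called either way. The number of members higher in Rxra cKO cells in atRA+PKCi was 2 under RLE scaling, library totals only, no low-count filter, DESeq2, the 4 libraries compared alone and both limma fits, the added gene being Hmox1. Scaling by library totals moved the median of all genes from 0.034 to 0.275 in the wild-type medium comparison. It gave 2 members higher in Rxra cKO FBS and 1 with a lower interaction. With it, Srxn1 was no longer called in wild-type cells (adjusted p = 0.187). Nor was G6pdx called in the Rxra cKO medium and FBS genotype comparisons (adjusted p = 0.164 and 0.2). No filter and DESeq2 each gave 5 lower interactions. With both an adjusted p under 0.01 and a change beyond 1 on the log2 scale required, the members higher and lower were 1 and 3 (wild-type medium), 0 and 5 (Rxra cKO medium), 0 and 1 (genotype, FBS), 0 and 2 (genotype, atRA+PKCi) and 3 and 1 (interaction), and all genes called numbered 2960, 1858, 1761, 2081 and 1134, against 8599, 6861, 6840, 6895 and 3924.

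Leaving out 1 library, which assumes that the lone library of a group varies like the others, gave in the same order 3 higher and 6 lower, 1 higher and 7 to 8 lower, 1 to 2 higher and 4 to 7 lower, 0 to 2 higher and 5 to 6 lower, and 4 to 5 higher and 1 to 4 lower. Without Rxra cKO atRA+PKCi library 1, 4543 genes were called for the Rxra cKO medium change and 2458 for the interaction, and without library 2, 2392 for the interaction. Cultured cells against the ORS class gave 3 to 4 higher and 1 to 2 lower, and BMP2/4 against B-27 gave 0 higher and 1 lower. With the mouse as a replicate block, the Gclm interaction was -0.40 and called, and no other call changed.

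At adjusted p under 0.05, 4 members were lower in culture than in the ORS class (7889 genes called against 5203) and 1 was higher in BMP2/4 than in B-27 (650 genes against 358), as it was with a 70% hashtag rule (615 genes) and a limit of 20% mitochondrial UMIs. Without 1 sum, 61 to 233 genes were called there; without the cell with the most Hmox1 UMIs, chosen after seeing the data, 174 were called and 0 members were lower.

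Signs turned, uncalled, for Gclm in BMP2/4 against B-27 (-0.035 by DESeq2, -0.094 without that cell), for the RAR inhibitor in G6pdx (0.018 under the hashtag rule, 0.22 under 20%, 0.135 with the block), Hmox1 (0.79), Gclc (0.385) and Gclm (0.10) under 20% and Gclm (0.013) without that cell, and for Slc7a11 in culture against the ORS class (0.30 under 20%). Without 1 library the ranges that crossed 0 were -0.011 to 0.29 (Sod2, wild-type medium), -0.42 to 0.02 (Slc7a11) and -0.004 to 0.15 (G6pdx, genotype in atRA+PKCi), -0.001 to 0.21 (Gsr, Rxra cKO medium) and -0.11 to 0.95 (Gsr, culture against the ORS class). They were -0.27 to 0.49 (Gclm) and -0.24 to 1.48 (G6pdx) for BMP2/4 against B-27, and -0.60 to 0.10 (Hmox1), -0.255 to 0.11 (Gsr), -0.73 to 0.078 (G6pdx), -0.47 to 0.10 (Gclm) and -0.038 to 0.47 (Txnrd1) for Rspo. For the RAR inhibitor they were -6.80 to 0.32 (Hmox1), -0.80 to 0.094 (Gclm), -0.77 to 2.32 (Slc7a11), -0.69 to 0.43 (G6pdx) and -0.087 to 0.22 (Txnrd1). The cause was not tested. Depth limits the culture conditions, with 5 to 27 cells in all sums but 2.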
